A study of Homo sapiens with 12 samples.

Results

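The expression of 50 genes of DNA replication and S phase was examined in SKBR-3 cells, an established breast cancer cell line with amplified HER2. The genes were chosen by symbol for their known roles in replication, with earlier results of these data known. All 50 were found among the 20531 genes listed, and all had at least 10 expected counts in at least 1 library of each comparison, the filter used here. RNAseq was performed on 12 libraries in 4 groups of 3 replicates. All cells received an siRNA pool, either non-targeting (NT) or against FOXA1, a pioneer transcription factor, and then DMSO or 300 nM lapatinib, an inhibitor of the HER2 and EGFR kinases, for 24 h. The groups were NT siRNA with DMSO, NT siRNA with lapatinib, FOXA1 siRNA with DMSO and FOXA1 siRNA with lapatinib. The labels place the siRNA 48 h before the drug, whereas the study's methods give a shorter interval. This is a single cell line, and nothing in the labels says whether the replicates were separate cultures, so p-values measure the spread between these libraries, which may be technical.

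Replication origins are prepared in G1, when CDC6 and CDT1 load the ring-shaped MCM helicase onto DNA, and geminin (GMNN) later blocks CDT1 so that no origin is loaded again. At the start of S phase MCM10, CDC45 and the GINS complex turn the loaded ring into a working helicase, primase and polymerase alpha lay down primers, and polymerases epsilon and delta extend them with the PCNA clamp, which the RFC complex places on DNA. Many of these genes are transcribed at the passage from G1 to S phase by E2F factors, which retinoblastoma proteins hold in check until cyclin-dependent kinases act on them.

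Expected counts summed to between 25749578 and 32271850 per library. FOXA1 itself was between 8308 and 8766 normalized counts (counts scaled to a common library size) in the NT siRNA, DMSO libraries, and it lay between 1160.0 and 1564 in those with FOXA1 siRNA and DMSO. In lapatinib it was between 12167 and 13174 with NT siRNA and between 1642 and 2384 with FOXA1 siRNA. FOXA1 fell by 2.63 ± 0.10 on the log2 scale in DMSO and fell by 2.69 ± 0.12 in lapatinib (SE, edgeR's quasi-likelihood test, adjusted p = 4.55e-06 and 6.11e-06), with every FOXA1 siRNA library below every NT siRNA library. Of 7 epithelial and HER2-amplicon markers, 6 had at least 4189 counts in every library, and CDH1 had between 2 and 19. The 10 markers of other cell types summed to between 5.9 and 9.55 TPM per library, a level scaled for transcript length and library size. The libraries numbered replicate 2 stood apart in every group. Pairs that included replicate 2 differed by a chi-square of 12.7 to 18.5 per degree of freedom over genes, against 3.75 to 5.94 for replicates 1 and 3. This touches the replication genes directly, since 49 of the 50 were lowest in replicate 2 among the 3 libraries with NT siRNA and DMSO, and 44 of the 50 among those with FOXA1 siRNA and DMSO. The lapatinib groups did not share this. There replicate 2 was lowest for 15 genes with NT siRNA and 14 with FOXA1 siRNA, and highest for 21 and 27.

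Lapatinib lowered nearly all of the replication genes under either siRNA. The 50 genes together held 0.427% ± 0.057 of the counts with NT siRNA and DMSO and 0.123% ± 0.0042 with NT siRNA and lapatinib (SD, n = 3). Under FOXA1 siRNA the share was 0.285% ± 0.026 in DMSO against 0.109% ± 0.0037 in lapatinib (SD, n = 3). These are bulk samples, in which fewer cells in S phase and less replication RNA per cell cannot be told apart. With NT siRNA 48 of the 50 genes were lower after lapatinib at an adjusted p under 0.05 (quasi-likelihood test of edgeR, Benjamini-Hochberg), where 29.2% of the 13713 genes tested were called lower. Of these, 41 fell at least 2-fold, against 7.12% of all genes tested. CHAF1B was the single gene of the 50 called higher, where 30.5% of genes tested were called higher, and RFC1 was not called. The median log2 fold change of the 50 was -1.85, beside 0.025 over all genes tested. Taken by replicate number, the median response was -2.10, -1.56 and -1.99 for replicates 1, 2 and 3.

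With FOXA1 siRNA 49 of the 50 genes were lower after lapatinib, where 29.1% of the 13745 genes tested were called lower, and 35 fell at least 2-fold, against 5.12% of genes tested. The number called higher was 0 by edgeR's quasi-likelihood test, 0 at an unadjusted p under 0.05 and 0 by DESeq2. The median log2 fold change was -1.41, beside 0.0061 over all genes tested, and by replicate number it was -1.66, -1.17 and -1.46. CDT1 was the 1 gene of the 49 whose call depended on a library. Its log2 fold change of -0.58 ± 0.21 (SE, adjusted p = 0.0394) had an adjusted p between 0.0511 and 0.133 by edgeR when any 1 of its 6 libraries other than FOXA1 siRNA, lapatinib replicate 2 was left out. The 48 genes called lower with both siRNAs differed widely in depth. Among the 50, lapatinib left a median of 27.3% of the DMSO level with NT siRNA, from 2.38% for CDCA7 to 132% for CHAF1B, and a median of 37.4% with FOXA1 siRNA.

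**Figure D1:**
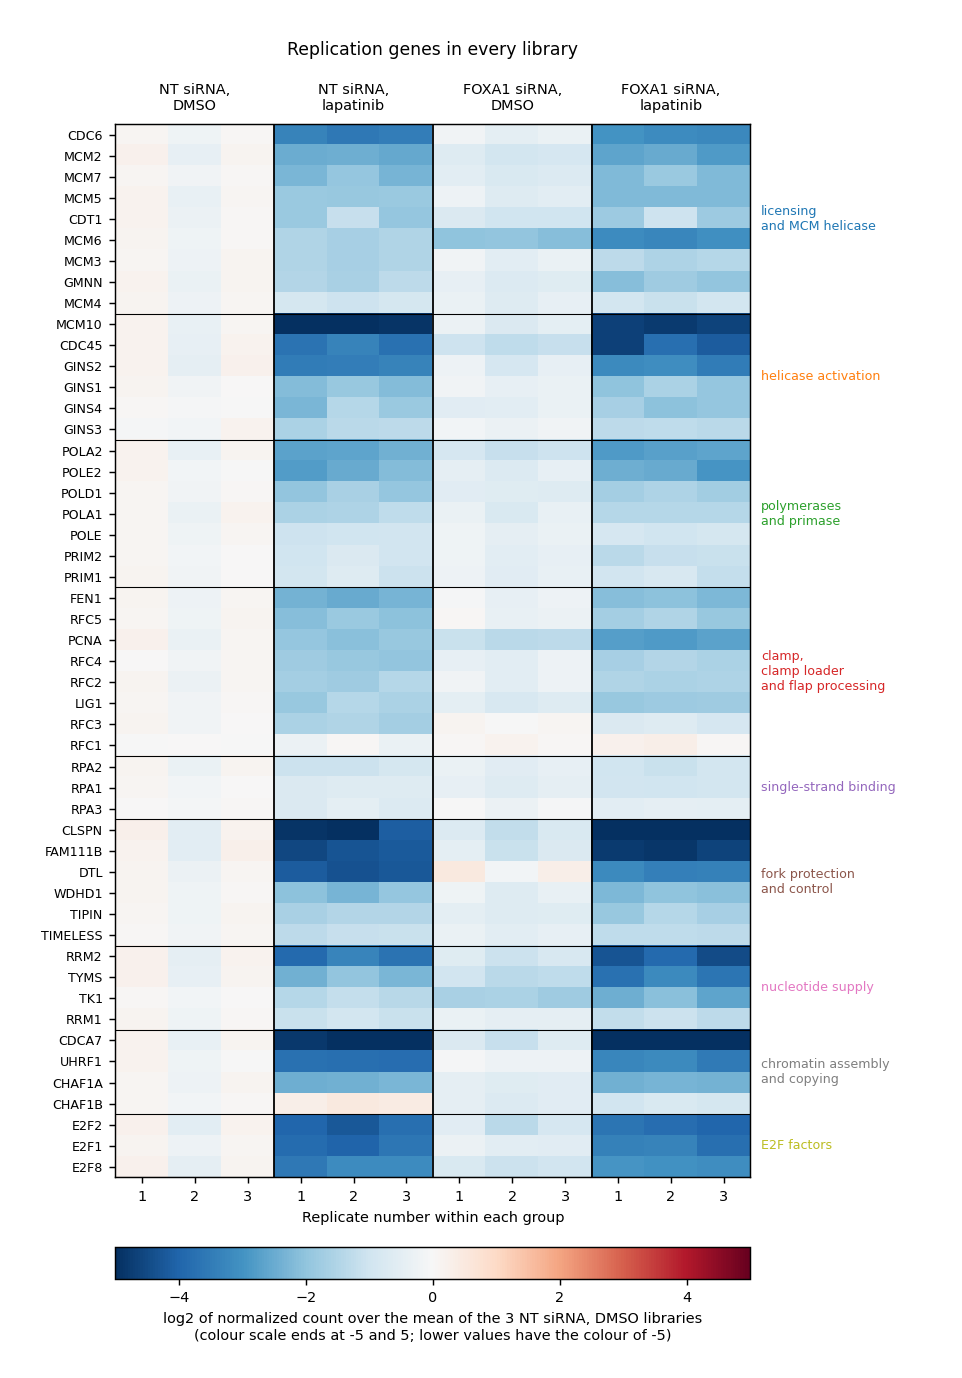
Each row is 1 of the 50 replication genes, grouped by role, and each column 1 of the 12 libraries; colour is the log2 ratio of the normalized count to the mean of the 3 libraries with NT siRNA and DMSO, on a scale that ends at -5 and 5. Both lapatinib groups are blue in nearly every row, darkest for MCM10, CLSPN, FAM111B and CDCA7, while RFC1 stays near 0 and CHAF1B is above 0 with NT siRNA and lapatinib.

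The licensing genes all fell, and CDC6 fell the most. CDC6, the ATPase that recruits the MCM ring to origins, had 11974, 9593 and 11578 normalized counts in the 3 replicates with NT siRNA and DMSO and 1090.1, 932 and 1011 with NT siRNA and lapatinib. Under FOXA1 siRNA it had 9682, 7901 and 8707 in DMSO against 1375, 1245 and 1189 in lapatinib. Each lapatinib library was far below each DMSO library, and the lapatinib libraries with FOXA1 siRNA all lay above those with NT siRNA. After lapatinib the log2 fold change was -3.43 ± 0.10 (SE, adjusted p = 1.27e-06) with NT siRNA and -2.78 ± 0.09 (SE, adjusted p = 1.49e-06) with FOXA1 siRNA by edgeR. MCM4, a subunit of the helicase ring, fell the least of this class. It had 9887, 7596 and 9631 normalized counts in DMSO against 4918, 4418 and 4946 in lapatinib with NT siRNA, groups that did not overlap, and its log2 fold change was -0.90 ± 0.10 (SE, adjusted p = 9e-05).

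The 6 subunits of the MCM ring fell by unequal amounts. After lapatinib with NT siRNA their log2 fold changes ran from -0.90 for MCM4 to -2.47 for MCM2, and their summed level went from 572 ± 68 TPM to 189.5 ± 2.5 TPM (SD, n = 3). MCM6 was the subunit with the largest response to FOXA1 siRNA. It had 3287, 2593 and 3183 normalized counts with NT siRNA and DMSO, and 750.4, 772 and 686 with FOXA1 siRNA and DMSO. In lapatinib it had 1058, 961 and 1051 with NT siRNA and 346, 313 and 357 with FOXA1 siRNA. The FOXA1 siRNA libraries in DMSO were thus below even the NT siRNA libraries in lapatinib. In TPM, which allows for transcript length, MCM6 made up 8.80% ± 0.16 of the sum of the 6 subunits with NT siRNA and DMSO and 8.89% ± 0.4 with NT siRNA and lapatinib. Under FOXA1 siRNA that share was 3.32% ± 0.44 in DMSO and 3.18% ± 0.22 in lapatinib (SD, n = 3).

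CDT1, the partner of CDC6 in loading, fell by 1.58 ± 0.21 (SE, adjusted p = 0.000259) on the log2 scale with NT siRNA, and its inhibitor GMNN by 1.45 ± 0.14 (SE, adjusted p = 4.87e-05). CDT1 was uneven within the lapatinib groups. With NT siRNA and lapatinib it had 358, 586 and 344 normalized counts, and with FOXA1 siRNA and lapatinib 371, 640.0 and 369. In both groups replicate 2 was the high library, still below the DMSO libraries of the same siRNA.

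The 6 factors that activate the helicase fell deeper as a class, their median log2 fold changes being -2.73 under NT siRNA and -2.14 under FOXA1 siRNA, beside -1.58 and -1.37 for the 9 licensing genes. All 6 were called lower with both siRNAs. MCM10, which takes part in opening the loaded ring, had 1602, 1083 and 1518 normalized counts with NT siRNA and DMSO against 30.9, 33.8 and 47.2 in lapatinib. Under FOXA1 siRNA it had 1139, 848 and 1000.3 in DMSO against 54.8, 50.9 and 56.3 in lapatinib. The groups were far apart, at a log2 fold change of -5.20 ± 0.21 (SE, adjusted p = 1.78e-06) with NT siRNA and -4.19 ± 0.14 (SE, adjusted p = 1.49e-06) with FOXA1 siRNA by edgeR. CDC45, which joins MCM and GINS in the working helicase, kept 8.40% of its DMSO level with NT siRNA. The 4 GINS subunits differed among themselves. GINS2 kept 9.25%, GINS1 23.7% and GINS4 28.4%, while GINS3 kept 37.8%. GINS3 had 711, 672 and 828 normalized counts in DMSO against 248, 291 and 295 in lapatinib with NT siRNA, with a log2 fold change of -1.38 ± 0.11 (SE, adjusted p = 1.78e-05), the smallest of the class.

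All 7 polymerase and primase genes were lower after lapatinib with both siRNAs, 4 of them at least 2-fold with NT siRNA and 3 with FOXA1 siRNA. POLA2, the regulatory subunit of polymerase alpha, had 1211, 843 and 1200.2 normalized counts in DMSO against 169, 175 and 207 in lapatinib with NT siRNA. The groups were well separated, at a log2 fold change of -2.54 ± 0.16 (SE, adjusted p = 6.74e-06) with NT siRNA and -1.71 ± 0.11 (SE, adjusted p = 9.37e-06) with FOXA1 siRNA by edgeR. POLA1, the catalytic subunit of the same enzyme, fell by 1.44 ± 0.14 (SE, adjusted p = 4.65e-05) with NT siRNA. The ratio of POLA2 to POLA1 in TPM was 1.40 ± 0.064 with NT siRNA and DMSO and 0.673 ± 0.013 with NT siRNA and lapatinib (SD, n = 3). In polymerase epsilon, which extends the leading strand, the accessory subunit gene POLE2 (-2.44 ± 0.17, SE) also had a larger fall than the catalytic POLE (-0.96 ± 0.08, SE). The 2 primase subunits fell less. PRIM1, the catalytic subunit, had 417, 338 and 379.6 normalized counts in DMSO against 199.7, 244 and 182 in lapatinib with NT siRNA, groups that did not overlap, with a log2 fold change of -0.84 ± 0.13 (SE, adjusted p = 0.000781). PRIM2, the large subunit, fell by 0.87 ± 0.11 (SE, adjusted p = 0.000204).

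The clamp PCNA had the highest TPM of the 50 genes with NT siRNA and DMSO, at 345 ± 55.4 (SD, n = 3). It had 8076, 5605 and 7443 normalized counts with NT siRNA and DMSO and 1833, 1658 and 1905 with NT siRNA and lapatinib. Under FOXA1 siRNA it had 3284, 2790.2 and 2879 in DMSO against 1057, 988 and 1098 in lapatinib. The 4 groups stood in steps with no overlap between neighbours. FEN1, the endonuclease that trims flaps between Okazaki fragments, fell the most of the class. It had 2813, 2139 and 2722 normalized counts in DMSO against 493, 441 and 509.8 in lapatinib with NT siRNA, with a log2 fold change of -2.39 ± 0.11 (SE, adjusted p = 2.69e-06) by edgeR. LIG1, the ligase that seals those fragments, kept 32.4% with NT siRNA and 43.5% with FOXA1 siRNA.

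The clamp loader was split between its subunits. The small subunits RFC2, RFC3, RFC4 and RFC5 fell by between 1.57 and 1.98 on the log2 scale with NT siRNA, whereas the large subunit RFC1 had 1002, 1029 and 986 normalized counts in DMSO against 819, 1035 and 791 in lapatinib. Lapatinib replicate 2 lay above all 3 DMSO libraries, and RFC1 was not called, with a log2 fold change of -0.17 ± 0.10 (SE, adjusted p = 0.188) by edgeR. Without replicate 2 of both groups, a choice made after the data were seen, it was called lower. With FOXA1 siRNA RFC1 was at 0.11 ± 0.07 (SE, adjusted p = 0.238). RFC1 made up 4.53% ± 0.68 of the summed RFC TPM with NT siRNA and DMSO and 11.8% ± 1.8 with NT siRNA and lapatinib (SD, n = 3).

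RPA1, RPA2 and RPA3 encode the complex that coats single-stranded DNA in replication and also in repair, and they formed the class with the shallowest median fall, at -0.65 with NT siRNA and -0.45 with FOXA1 siRNA. All 3 were called lower with both siRNAs and none fell 2-fold. RPA2 had 1337, 986 and 1363 normalized counts in DMSO against 578, 582 and 673 in lapatinib with NT siRNA, at -0.98 ± 0.13 (SE, adjusted p = 0.000245) by edgeR. RPA3 had 771, 700.0 and 789.9 in DMSO against 460.1, 543 and 471 in lapatinib, at -0.59 ± 0.09 (SE, adjusted p = 0.000523). For neither gene did the groups overlap.

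Genes that guard or pace the fork fell over a wide range. CLSPN, the checkpoint adaptor claspin, had 1100.3, 648 and 1056 normalized counts in DMSO against 30.9, 27.8 and 53.3 in lapatinib with NT siRNA. With FOXA1 siRNA it had 582, 399 and 546 in DMSO against 30.0, 17.3 and 17.4 in lapatinib. The groups were far apart, at -4.61 ± 0.28 (SE, adjusted p = 6.73e-06) with NT siRNA and -4.55 ± 0.24 (SE, adjusted p = 4.22e-06) with FOXA1 siRNA by edgeR. FAM111B, which carries a protease domain, and DTL, the substrate receptor of the ubiquitin ligase that removes CDT1 on DNA-bound PCNA, also kept little of their DMSO level. FAM111B kept 4.92% and DTL 5.23% with NT siRNA. TIMELESS and TIPIN, partners in the fork protection complex, fell less. TIMELESS had 2942, 2484 and 2952 normalized counts in DMSO against 1133, 1240.4 and 1286 in lapatinib with NT siRNA, without overlap, at -1.17 ± 0.08 (SE, adjusted p = 9.88e-06). TIPIN kept 35.2% and WDHD1, which ties polymerase alpha to the helicase, kept 23.5%.

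All 4 nucleotide supply genes fell at least 2-fold with NT siRNA. RRM2, the regulated small subunit of ribonucleotide reductase, had 13433, 8484 and 13056 normalized counts in DMSO against 796, 1196 and 911 in lapatinib with NT siRNA. The fall was far larger than the spread of the DMSO replicates, at a log2 fold change of -3.56 ± 0.21 (SE, adjusted p = 5.21e-06) by edgeR. RRM1, the large subunit of the same enzyme, had 5607, 4444 and 5297 in DMSO against 2395, 2703 and 2352 in lapatinib, also without overlap, and fell by 1.02 ± 0.09 (SE, adjusted p = 3.11e-05). The ratio of RRM1 to RRM2 in TPM was 0.478 ± 0.069 with NT siRNA and DMSO and 2.80 ± 0.41 with NT siRNA and lapatinib (SD, n = 3), so that the more abundant transcript of the pair changed. TYMS, which makes thymidylate, and TK1, which salvages thymidine, fell by 2.18 ± 0.16 and 1.32 ± 0.07 on the log2 scale with NT siRNA (SE).

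Chromatin assembly factor showed opposite changes in its subunits. CHAF1A, the large subunit, had 1742, 1373 and 1800.2 normalized counts in DMSO against 304, 311 and 332 in lapatinib with NT siRNA. CHAF1B, the middle subunit, had 1496, 1278 and 1451 in DMSO against 1726, 1994 and 1877 in lapatinib with NT siRNA. With FOXA1 siRNA CHAF1B had 1039, 880.1 and 958 in DMSO against 733, 823 and 774 in lapatinib. CHAF1B was thus higher in every lapatinib library than in any DMSO library with NT siRNA, and lower in every lapatinib library with FOXA1 siRNA. Its log2 fold change was 0.43 ± 0.08 (SE, adjusted p = 0.00147) with NT siRNA and -0.30 ± 0.08 (SE, adjusted p = 0.0122) with FOXA1 siRNA by edgeR. The ratio of CHAF1B to CHAF1A in TPM went from 1.28 ± 0.093 to 8.76 ± 0.64 after lapatinib under NT siRNA, whereas under FOXA1 siRNA it went from 1.27 ± 0.038 to 3.63 ± 0.12 (SD, n = 3).

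CDCA7, which activates a chromatin remodeler needed for DNA methylation, had the deepest fall of the 50 with NT siRNA. It had 381, 263 and 366 normalized counts in DMSO against 11.9, 5.96 and 6.15 in lapatinib with NT siRNA, and 203, 154 and 213 in DMSO against 6.20, 4.80 and 2.05 in lapatinib with FOXA1 siRNA. The lapatinib values are a handful of reads each, so the log2 fold change of -5.38 ± 0.27 (SE, adjusted p = 3.19e-06) by edgeR rests on few counts. UHRF1, which leads the maintenance methyltransferase to copied DNA, kept 7.37% with NT siRNA.

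The E2F genes themselves were among the most reduced. E2F2, an activator, had 1077, 639 and 1036 normalized counts in DMSO against 58.3, 48.7 and 66.7 in lapatinib with NT siRNA, at -3.96 ± 0.23 (SE, adjusted p = 5.59e-06) by edgeR. E2F8, a repressor of E2F targets, had 956, 591 and 904 in DMSO against 68.9, 93.4 and 92.3 in lapatinib, at -3.23 ± 0.21 (SE, adjusted p = 7.6e-06). E2F1, the other activator of the list, kept 7.08%. Over the 3 genes the lapatinib libraries with NT siRNA lay between 48.7 and 108 normalized counts and the DMSO libraries between 591 and 1453.

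The letters of E2F sites were looked up in the promoters, since these genes fell together with the E2F genes. RefSeq windows of 300 bases on GRCh38.p14, from 250 bases before to 50 after the first listed start site, were at hand for 43 of the 50 genes, all but MCM4, MCM5, GINS4, RPA2, RPA3, FAM111B and E2F8. On either strand 23 of the 43 windows (53.5%) held at least 1 of the words TTTCCCGC, TTTGGCGC, TTTCGCGC and TTTGCCGC, none of which contains the other motifs searched. Over all 27305 genes with a window, expressed or not, the share was 3.33%. It was 22.5% of 40 further replication genes, 17.6% of 17 regulators of the passage from G1 to S phase and 10.3% of 29 mitosis genes, lists described below. The CCAAT box (CCAAT) was present in 55.8% of the 43 windows and 35.7% of all, and the cell cycle homology region (TTTGAA) in 2.33% of the 43 and 15.4% of all. The 23 genes with an E2F word had a median log2 fold change of -2.18 after lapatinib with NT siRNA, and the 20 genes without one -1.54. Their ranges overlapped widely, from -5.38 to -0.96 and from -5.20 to 0.43. A match is a description of letters and not a bound site. Only exact copies of the words were counted, so a window without a word can hold a near copy, as that of RFC1 does near its end. Shown are the windows of the 4 genes with the largest fall among those with a word, with the word in capitals, and that of RFC1, the gene that changed least among those without a word. They lie at chr2:173354622-173354921 (plus strand) for CDCA7, chr1:35769929-35770228 (minus strand) for CLSPN, chr1:212035498-212035797 (plus strand) for DTL, chr1:23531184-23531483 (minus strand) for E2F2 and chr4:39366313-39366612 (minus strand) for RFC1, each written 5′ to 3′ in the direction of transcription.
CDCA7: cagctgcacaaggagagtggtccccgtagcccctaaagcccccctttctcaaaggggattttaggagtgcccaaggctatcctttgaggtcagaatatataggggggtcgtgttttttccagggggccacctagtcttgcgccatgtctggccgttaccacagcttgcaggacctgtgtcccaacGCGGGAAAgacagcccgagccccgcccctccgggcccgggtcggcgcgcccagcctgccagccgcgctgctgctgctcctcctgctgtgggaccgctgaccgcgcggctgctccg
CLSPN: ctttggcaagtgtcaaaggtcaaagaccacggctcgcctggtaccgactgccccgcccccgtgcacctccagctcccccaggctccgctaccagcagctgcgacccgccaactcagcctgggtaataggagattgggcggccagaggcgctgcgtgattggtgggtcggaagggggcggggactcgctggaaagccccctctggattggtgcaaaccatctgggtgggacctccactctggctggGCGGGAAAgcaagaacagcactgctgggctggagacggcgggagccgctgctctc
DTL: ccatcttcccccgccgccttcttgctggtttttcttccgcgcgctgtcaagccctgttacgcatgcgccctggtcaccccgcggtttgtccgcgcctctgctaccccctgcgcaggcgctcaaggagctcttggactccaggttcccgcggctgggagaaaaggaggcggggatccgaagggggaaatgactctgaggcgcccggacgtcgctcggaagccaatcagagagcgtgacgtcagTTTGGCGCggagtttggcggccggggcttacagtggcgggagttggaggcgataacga
E2F2: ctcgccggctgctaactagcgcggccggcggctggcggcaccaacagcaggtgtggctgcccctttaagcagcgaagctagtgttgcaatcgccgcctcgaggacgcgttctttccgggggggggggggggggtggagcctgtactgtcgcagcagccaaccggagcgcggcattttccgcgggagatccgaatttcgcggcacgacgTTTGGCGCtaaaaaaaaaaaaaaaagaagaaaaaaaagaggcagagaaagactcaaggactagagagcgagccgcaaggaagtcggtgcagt
RFC1: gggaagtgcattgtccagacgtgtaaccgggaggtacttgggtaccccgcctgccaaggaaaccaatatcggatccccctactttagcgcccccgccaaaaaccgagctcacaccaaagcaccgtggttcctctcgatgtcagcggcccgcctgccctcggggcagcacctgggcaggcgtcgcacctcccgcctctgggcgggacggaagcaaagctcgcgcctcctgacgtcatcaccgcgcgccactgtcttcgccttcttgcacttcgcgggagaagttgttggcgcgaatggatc
The word begins 65 bases before the start in CDCA7, 42 before it in E2F2 and 8 before it in DTL, and in CLSPN it spans the start, beginning 5 bases before it. In CDCA7 and CLSPN the word is read on the opposite strand, so that the capitals are its reverse complement.

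Without lapatinib, FOXA1 siRNA lowered most of the replication genes by a small amount. In DMSO 40 of the 50 were lower with FOXA1 siRNA than with NT siRNA, where 21.3% of the 13694 genes tested were called lower, and 5 of them fell at least 2-fold, against 2.77% of genes tested. The number called higher was 0 by edgeR's quasi-likelihood test, 0 at an unadjusted p under 0.05 and 0 by DESeq2. With replicate number as a block, 46 were lower, where 30.2% of genes tested were, and DTL was higher (log2 fold change 0.24, adjusted p = 0.000833 by edgeR). DTL was also called higher without FOXA1 siRNA, DMSO replicate 2. The median log2 fold change was -0.46, beside -0.0053 over all genes tested, and -0.48, -0.41 and -0.58 for replicates 1, 2 and 3. The number called lower leaned on single libraries. It was 25 without NT siRNA, DMSO replicate 1, 25 without NT siRNA, DMSO replicate 3 and 26 without FOXA1 siRNA, DMSO replicate 3, and 25 genes were called in all 6 fits with 1 library omitted. The number at least 2-fold lower was 10 without NT siRNA, DMSO replicate 2 and 8 without FOXA1 siRNA, DMSO replicate 1. Shares of all genes tested were not worked out for the fits with a library omitted.

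The 5 genes that fell at least 2-fold were MCM6, TK1, PCNA, TYMS and CDC45. TK1 had 8144, 7128 and 7933 normalized counts with NT siRNA and DMSO and 2505, 2586 and 2282 with FOXA1 siRNA and DMSO, and it had 2888, 3348 and 2942 with NT siRNA and lapatinib. As with MCM6, each FOXA1 siRNA library in DMSO was below each NT siRNA library in lapatinib. MCM6 fell by 2.02 ± 0.09 (SE, adjusted p = 7.78e-06) on the log2 scale by edgeR, TK1 by 1.64 ± 0.07 (SE, adjusted p = 5.83e-06) and PCNA by 1.22 ± 0.13 (SE, adjusted p = 0.000211). TYMS fell by 1.15 ± 0.16 (SE, adjusted p = 0.000806) and CDC45 by 1.14 ± 0.16 (SE, adjusted p = 0.000864). MCM7 (-0.64 ± 0.08, SE, adjusted p = 0.000695) and POLD1, the catalytic subunit of polymerase delta (-0.59 ± 0.08, SE, adjusted p = 0.000679), had smaller changes with small errors. The 10 genes not called were GINS2, RFC2, FEN1, GINS3, RFC5, UHRF1, RPA3, RFC3, RFC1 and DTL, with log2 fold changes from -0.46 for GINS2 to 0.24 for DTL. By class the nucleotide supply genes had the lowest median (-0.98) and the clamp, clamp loader and flap genes the highest (-0.26).

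**Figure D2:**
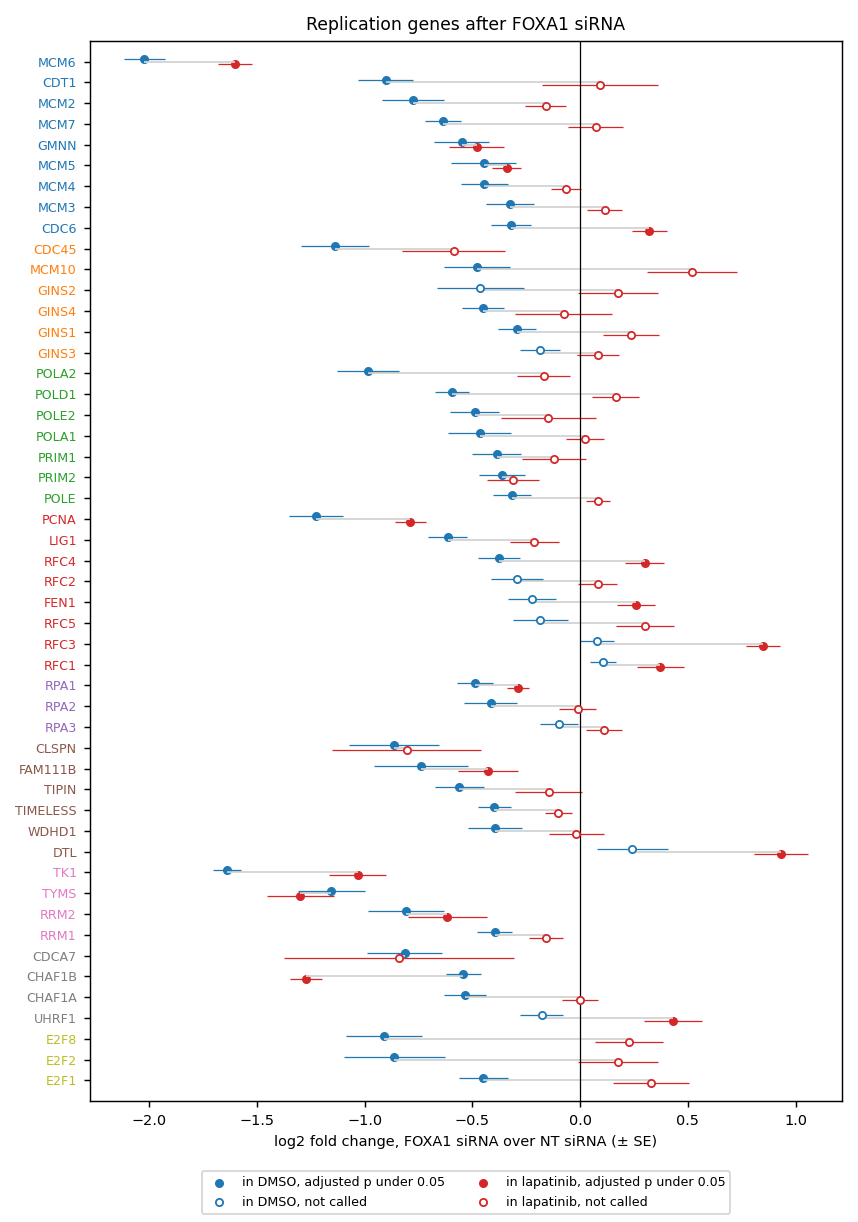
Log2 fold change of FOXA1 siRNA over NT siRNA for each of the 50 replication genes, in DMSO (blue) and in lapatinib (red), with SE bars and 3 libraries per group; filled points have an adjusted p under 0.05 and gene names are coloured by role. In DMSO nearly all points lie left of 0, led by MCM6 at -2.02 and TK1 at -1.64, while in lapatinib many lie near 0, with MCM6, TYMS, CHAF1B and TK1 at -1.03 or lower and RFC3 and DTL at 0.85 or higher.

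In lapatinib FOXA1 siRNA did not move the genes in a common direction. There 10 of the 50 were lower, where 22.2% of the 13727 genes tested were called lower, and 7 were higher, where 22.7% were called higher. These are 20% and 14% of the 50, neither above the share of all genes tested in this fit. The median log2 fold change was -0.014, and 0.061, 0.014 and -0.14 for replicates 1, 2 and 3. With replicate number as a block 16 were lower and 12 higher, where 31.1% and 30.6% of all genes tested were called in these directions. The count of higher genes was 4 without NT siRNA, lapatinib replicate 1 or replicate 3 and 3 without FOXA1 siRNA, lapatinib replicate 1 or replicate 2, and RFC3 and DTL were the 2 called higher in all 6 fits with 1 library omitted.

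Of the genes lower with FOXA1 siRNA in lapatinib, TYMS had 681, 906 and 734 normalized counts with NT siRNA and 273, 388 and 288 with FOXA1 siRNA, without overlap. MCM6 was at -1.60 ± 0.08 (SE, adjusted p = 7.3e-06) by edgeR, CHAF1B at -1.27 ± 0.07 (SE, adjusted p = 1.07e-05) and PCNA at -0.79 ± 0.07 (SE, adjusted p = 8.8e-05). TYMS was at -1.30 ± 0.16 (SE, adjusted p = 0.000321), TK1 at -1.03 ± 0.13 (SE, adjusted p = 0.000464) and RPA1 at -0.29 ± 0.05 (SE, adjusted p = 0.00249). All 10 genes called lower with FOXA1 siRNA in lapatinib, the others being MCM5, GMNN, RRM2 and FAM111B, were also called lower with it in DMSO. That DMSO call was common, made in 40 of the 50 genes (80%), against 21.3% of all genes tested. In DMSO MCM5 and FAM111B were called in 2 of the 6 fits with 1 library omitted. In lapatinib 7 of the 10 genes were called in all 6 such fits, GMNN in 4, RRM2 in 3 and FAM111B in 2. DESeq2 did not call FAM111B in lapatinib (adjusted p = 0.0694).

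Of the genes higher with FOXA1 siRNA in lapatinib, RFC3 had 979.6, 1021 and 887 normalized counts with NT siRNA and 1736, 1881 and 1607 with FOXA1 siRNA. DTL had 112, 98.4 and 106 with NT siRNA and 223, 188 and 194 with FOXA1 siRNA. For both genes all 3 FOXA1 siRNA libraries were above the NT siRNA libraries. The log2 fold change was 0.85 ± 0.08 (SE, adjusted p = 9.75e-05) for RFC3, 0.93 ± 0.12 (SE, adjusted p = 0.000575) for DTL and 0.32 ± 0.08 (SE, adjusted p = 0.0139) for CDC6 by edgeR. CDC6 was not called without FOXA1 siRNA, lapatinib replicate 1 (adjusted p = 0.0552 by edgeR). RFC1 (0.37 ± 0.11, SE, adjusted p = 0.0246) was not called without NT siRNA, lapatinib replicate 1 or 3 or FOXA1 siRNA, lapatinib replicate 1 or 2, and RFC4 (0.30 ± 0.09, SE, adjusted p = 0.0271) without NT siRNA, lapatinib replicate 2 or 3 or FOXA1 siRNA, lapatinib replicate 2 or 3. UHRF1 (0.43 ± 0.13, SE, adjusted p = 0.031) and FEN1 (0.26 ± 0.09, SE, adjusted p = 0.0432) were lost without any 1 library other than FOXA1 siRNA, lapatinib replicate 3.

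**Figure D3:**
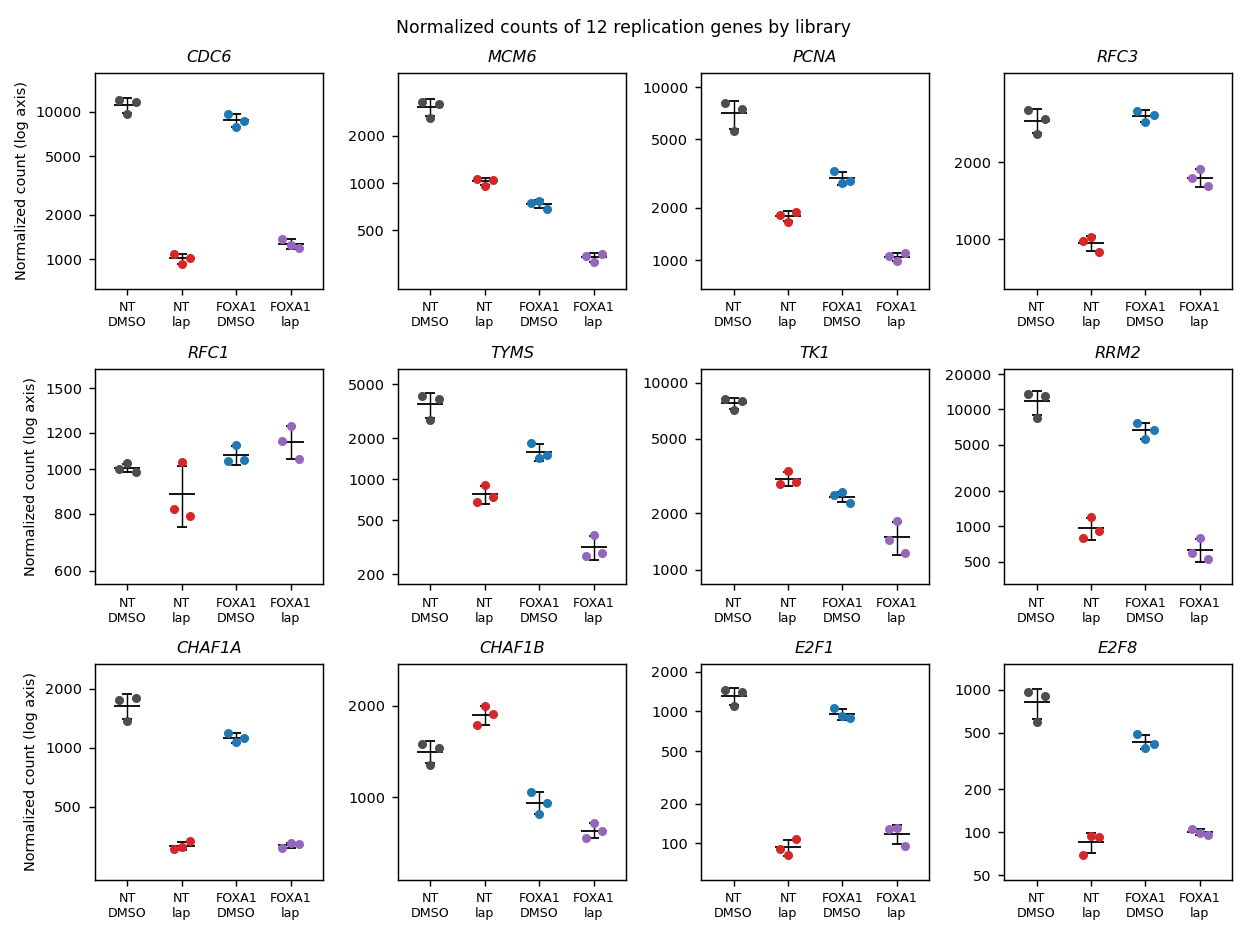
Normalized counts of 12 replication genes in the 12 libraries, on log axes that do not start at 0; points are libraries and black marks the mean ± SD of 3 replicates. MCM6, PCNA, TYMS and TK1 are lower with FOXA1 siRNA in both DMSO and lapatinib, RFC3 is higher with FOXA1 siRNA in lapatinib and overlaps in DMSO, and CHAF1B moves up after lapatinib with NT siRNA and down with FOXA1 siRNA.

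The depth of the fall was compared with and without FOXA1 by the interaction of siRNA and drug over all 12 libraries, where a positive value is a smaller fall with FOXA1 siRNA. Of the 50 genes, 47 had a higher log2 fold change after lapatinib with FOXA1 siRNA than with NT siRNA, and 3 a lower one, namely CDCA7, TYMS and CHAF1B. The median interaction was 0.44, beside 0.0054 over all genes tested, and 0.51, 0.41 and 0.49 for replicates 1, 2 and 3. The interaction passed an adjusted p of 0.05 as positive in 12 genes, where 3.99% of the 14012 genes tested were called positive, and as negative in CHAF1B alone, where 3.2% were called negative. With replicate number as a block 28 genes were positive, among them all 12, where 11.1% of genes tested were, and DESeq2 gave 20. The count was 26 without NT siRNA, DMSO replicate 2. It was 4 without NT siRNA, DMSO replicate 1 or 3, NT siRNA, lapatinib replicate 1, or FOXA1 siRNA, DMSO replicate 3. It was 5 without FOXA1 siRNA, lapatinib replicate 1, 6 without NT siRNA, lapatinib replicate 3 or FOXA1 siRNA, DMSO replicate 2, and 7 without FOXA1 siRNA, lapatinib replicate 2. Without all 4 libraries of replicate 2, a choice made after the data were seen, it was 31. The share of all genes called positive was worked out for the main fit and the block only. Whether the other counts moved with that share was not tested.

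Of the 12 positive genes, POLD1 had 1898, 1549.7 and 1859.7 normalized counts with NT siRNA and DMSO and 454, 577 and 463 with NT siRNA and lapatinib. Under FOXA1 siRNA it had 1199, 1152 and 1131 in DMSO against 543, 611 and 531 in lapatinib, so that the DMSO groups were apart and the lapatinib groups overlapped. RFC4 had 1185, 1028 and 1249 in DMSO against 333, 313 and 297 in lapatinib with NT siRNA, and 875, 794 and 974 and then 368, 415 and 384 with FOXA1 siRNA. For RFC4 the FOXA1 siRNA libraries were below the NT siRNA libraries in DMSO and above them in lapatinib. RFC3 began from overlapping levels, at 3189, 2569 and 2949 with NT siRNA and 3176, 2862 and 3067 with FOXA1 siRNA in DMSO. The interaction was 0.79 ± 0.12 (SE, adjusted p = 0.00319) for RFC3, 0.78 ± 0.14 (SE, adjusted p = 0.00787) for POLD1, 0.70 ± 0.14 (SE, adjusted p = 0.01) for RFC4 and 0.66 ± 0.14 (SE, adjusted p = 0.0145) for CDC6 by edgeR, and these 4 were called in all 12 fits with 1 library omitted, as was CHAF1B (-0.71 ± 0.12, SE, adjusted p = 0.0044). E2F8 (1.16 ± 0.26, SE, adjusted p = 0.0215) was not called without NT siRNA, DMSO replicate 1 or 3 or NT siRNA, lapatinib replicate 1 or FOXA1 siRNA, DMSO replicate 3 or FOXA1 siRNA, lapatinib replicate 1, and MCM7 (0.73 ± 0.17, SE, adjusted p = 0.0262) was not called without NT siRNA, DMSO replicate 1 or 3 or NT siRNA, lapatinib replicate 1 or 3 or FOXA1 siRNA, DMSO replicate 2 or 3 or FOXA1 siRNA, lapatinib replicate 2. The lapatinib groups of E2F1 and POLA2 overlapped between the siRNAs, as did those of E2F2, whose interaction was not called (1.06 ± 0.36, SE, adjusted p = 0.105), while the FOXA1 siRNA libraries of all 3 in DMSO lay below those with NT siRNA.

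The lapatinib responses with NT siRNA and with FOXA1 siRNA, which share no library, ranked the 50 genes alike. Pearson's r was 0.969 and Spearman's rho 0.968 across the 50 genes, a description of 1 cell line in which genes are not independent replicates. The siRNA responses in DMSO and in lapatinib also share no library and had an r of 0.772 and a rho of 0.671 across the 50 genes. By class, the E2F genes had the highest median interaction (1.06) and the RPA genes the lowest (0.23). The number of RPA genes called was 0 of 3 by edgeR, 0 of 3 by DESeq2 and 1 of 3 at an unadjusted p under 0.05 by edgeR. With replicate number as a block RPA2 was called (interaction 0.42, adjusted p = 0.0169 by edgeR), as it was without NT siRNA, DMSO replicate 2, and RPA1 and RPA2 were called without all 4 libraries of replicate 2.

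**Figure D4:**
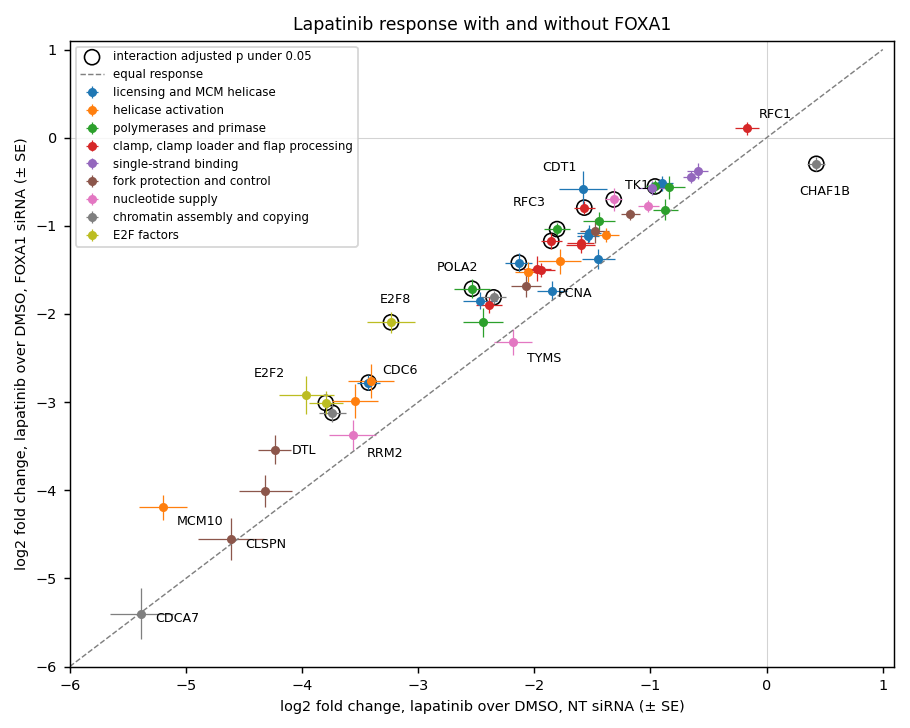
Log2 fold change after lapatinib with NT siRNA (x axis) and with FOXA1 siRNA (y axis) for the 50 replication genes, with SE bars, coloured by role; rings mark the 13 genes with an interaction at an adjusted p under 0.05. Most points lie above the dashed line of equal response, TYMS lies just below it, and CHAF1B lies right of it at 0.43 and -0.30.

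Further genes of replication fell by smaller amounts. Of 48 such genes, which include origin recognition subunits and other polymerase subunits, 42 were lower after lapatinib with NT siRNA and 3 higher, with a median log2 fold change of -1.01. With FOXA1 siRNA 41 were lower and 2 higher, with a median of -0.67. E2F7 (-3.75) and DSCC1 (-3.24), a subunit of an alternative clamp loader, had the largest falls with NT siRNA, and ORC4 (-0.043) and MCM9 (0.15) the smallest changes, neither called. The 3 higher genes, named after their values were seen, were RRM2B (0.29), ORC3 (0.34) and POLD4 (1.09), the small subunit of polymerase delta. Those lower were 87.5% of the 48 with NT siRNA and 85.4% with FOXA1 siRNA, against 29.2% and 29.1% of all genes tested. In DMSO FOXA1 siRNA lowered 22 of these 48 (45.8%, against 21.3% of all genes) and raised 4 (8.33% against 21.9%), at a median of -0.24. In lapatinib it lowered 5 (10.4% against 22.2%) and raised 16 (33.3% against 22.7%), at a median of 0.084. A positive interaction was called in 13 of the 48 (27.1% against 3.99%).

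Of 35 mitosis genes, 35 were lower with NT siRNA (median -1.28) and 32 with FOXA1 siRNA (median -0.65). Of these, 27 fell at least 2-fold with NT siRNA and 5 with FOXA1 siRNA, or 77.1% and 14.3% of the 35, against 7.12% and 5.12% of all genes tested. The interaction was above 0 in 35 of the 35, with a median of 0.61 beside 0.44 for the 50 replication genes, and was called positive in 4 (11.4% against 3.99% of all genes). CDK1 (-2.58) fell the most and HMMR (-0.59) the least with NT siRNA. Their promoter windows held an E2F word in 10.3% and the TTTGAA word in 75.9% of 29 genes. Of 22 regulators of the passage from G1 to S phase tested, 13 were lower and 5 higher after lapatinib with NT siRNA, at a median of -0.85. These are 59.1% lower, against 29.2% of all genes tested, and 22.7% higher, against 30.5%. CCNE2 (-3.30), a cyclin E gene, and CDC25A (-2.73), a phosphatase that activates CDK2, fell the most, and CDK6 (-0.078) and CDKN2C (0.13) changed the least, neither called. The 5 higher genes, a share below that background and named after their values were seen, were the retinoblastoma family genes RB1 (0.41) and RBL2 (0.72) and the kinase inhibitors CDKN1B (0.74), CDKN1C (0.98) and CDKN2B (0.53).

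**Figure D5:**
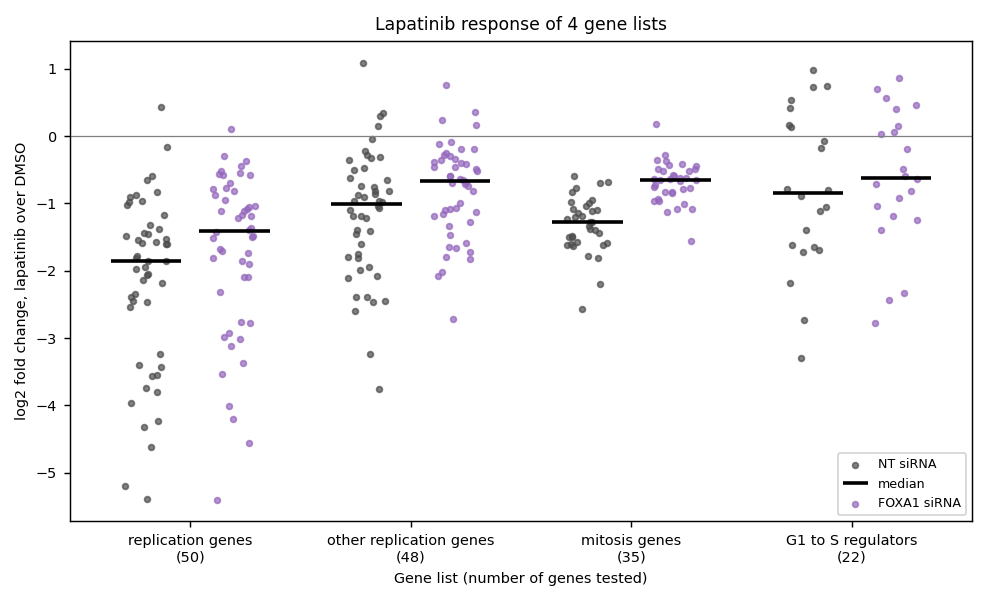
Log2 fold change after lapatinib for the 50 replication genes and 3 other lists, with NT siRNA (grey) and FOXA1 siRNA (purple); each point is 1 gene and black bars are medians. The 50 replication genes reach the lowest values and have medians of -1.85 and -1.41, and the mitosis genes lie in a narrower band with medians of -1.28 and -0.65.

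Some of the 50 genes share transcribed bases with a neighbour. In GENCODE release 44, exons of 15 of them overlapped those of another protein-coding gene, 11 of them on the opposite strand. The longest opposite-strand overlaps were 967 bases between TYMS and ENOSF1 and 392 bases between MCM7 and AP4M1, and POLA2 shared 2012 exonic bases with another annotated gene on its own strand. How reads in such stretches were assigned was not tested.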

How the data were processed

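RNA of SKBR-3 cells was sequenced in 12 libraries, 3 replicates in each of 4 groups taken from the labels. The sources name 2 different kits, KAPA Stranded mRNAseq and an Illumina TruSeq RNA kit, so whether strand was recorded is not settled here. The authors deposited expected counts per gene, with no normalization, and TPM values, which divide by transcript length and scale each library to a common total. The submitters' processing notes name RSEM, DESeq2 1.12.3 and R 3.2.2, whereas the methods name STAR and Salmon on hg38.

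Expected counts were rounded to whole numbers. Genes that reached 10 counts in any library fitted were kept, scaled by TMM and tested with edgeR's quasi-likelihood test (edgeR 4.0.16, R 4.3.3), with Benjamini-Hochberg adjustment over all genes fitted. Each comparison was fitted on its 6 libraries, and the interaction on all 12. A gene was called at an adjusted p under 0.05. The SE is the size of the log2 fold change divided by the square root of F. A normalized count is the count divided by the TMM-scaled library size and multiplied by the mean library total. The authors' own comparisons used DESeq2, which is an alternative here (DESeq2 1.42.0). The other alternatives were RLE and upper-quartile scaling, no filter, a filter of 10 counts in every library, all 12 libraries in 1 model, the replicate number as a block and leaving out each library. Figures and summaries were made with Python 3.11.15, numpy 2.4.6, pandas 2.3.3 and matplotlib 3.10.9.

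Libraries with the same replicate number in different groups deviated alike. Deviations from the group means correlated in all 18 same-number pairs (mean 0.426, range 0.267 to 0.694, over 10813 genes), against a mean of -0.199 between different numbers. Deviations within a group cancel, so that negative mean largely follows from the positive one and is not separate evidence.

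The members, their roles and the other lists were chosen with earlier results of these data known. Full statistics are given for the genes with the largest fall and with the smallest fall or largest rise in each role after lapatinib with NT siRNA, and for up to 6 genes with the smallest p in each direction of the siRNA comparisons and the interaction. Other genes of the 50 are named by their values. Of the other lists, up to 4 genes with the largest and smallest changes are named.

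With totals between 25749578 and 32271850 expected counts, every one of the 50 genes except CDCA7 had at least 10 counts in every library. The fitting script was tested on simulated data that had no replicate effect, unlike these libraries. Changes of 0.5 on the log2 scale were recovered in 90% of cases for lapatinib with NT siRNA and in 56% for the interaction. For changes of 1 these were 100% and 99%. An interaction near 0.5 can therefore go uncalled.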

Additional observations from a re-analysis of the deposited data

Results flagged for a closer look

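The lapatinib response differed between the siRNAs by the interaction test of edgeR in 13 of the 50 replication genes, and each value below is the response with FOXA1 siRNA minus that with NT siRNA, on the log2 scale. In 12 genes the fall was smaller with FOXA1 siRNA. These were RFC3 (0.79, adjusted p = 0.00319), POLD1 (0.78, adjusted p = 0.00787), RFC4 (0.70, adjusted p = 0.01), CDC6 (0.66, adjusted p = 0.0145), E2F8 (1.16, adjusted p = 0.0215), MCM7 (0.73, adjusted p = 0.0262), CHAF1A (0.55, adjusted p = 0.0303), POLA2 (0.84, adjusted p = 0.0305), TK1 (0.63, adjusted p = 0.0378), UHRF1 (0.63, adjusted p = 0.0433), E2F1 (0.80, adjusted p = 0.0443) and POLE (0.42, adjusted p = 0.048). In CHAF1B the difference had the other sign (-0.71, adjusted p = 0.0044), from a rise with NT siRNA to a fall with FOXA1 siRNA. RFC3, POLD1, RFC4, CDC6 and CHAF1B were called in all 12 fits with 1 library omitted. The other 8 were called in fewer of these fits. E2F8 was called in 7 of the 12, MCM7 and TK1 in 5, POLA2, UHRF1 and E2F1 in 3, and CHAF1A and POLE in 2. In DMSO the level of 12 of these 13 genes was lower on average with FOXA1 siRNA than with NT siRNA, and RFC3 was the exception (0.078 ± 0.08, SE, not called). Of all 50 genes 47 were lower on average in DMSO, a like share, so this does not set the 13 apart. The interaction is also computed from the same DMSO libraries, so the lower level is not separate evidence. Those 12 include CHAF1B, whose difference had the other sign. How far the lower starting level took part in the smaller fall of the others was not tested.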

How the results depend on the processing

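For lapatinib with either siRNA, the numbers of replication genes called lower and higher and their median stayed within 1.5 times of their main values, or within 1 SD between replicates, under every alternative run. The siRNA comparisons and the interaction moved with single libraries. Leaving out 1 library gave 25 to 44 genes lower with FOXA1 siRNA in DMSO, 5 to 10 of them at least 2-fold lower, 0 to 1 higher and a median of -0.577 to -0.391. In lapatinib it gave 3 to 6 genes higher. For the interaction it gave 4 to 26 positive genes and a median of 0.377 to 0.551. Pairing the libraries by number (a replicate block) gave 1 gene higher in DMSO, 16 lower and 12 higher in lapatinib and 28 positive interactions, and changed no other count or median by as much. DESeq2 gave 20 positive interactions. Without replicate 2 of every group, chosen after the data were seen, there were 44 genes lower and 1 higher in DMSO, 31 positive interactions and a median interaction of 0.504. For DESeq2 and the fits with libraries left out, the shares of all genes called were not worked out. These counts therefore have no background beside them. The causes were not tested. No called value changed sign. Over the 50 genes and 5 comparisons, leaving out 1 library gave 1799 values, of which 155 lost a call and 28 gained one, most of them in the siRNA comparisons and the interaction. The other alternatives gave 1946 values, of which 10 lost a call and 75 gained one. Scaling moved the median of all genes by less than 0.1 on the log2 scale. CDCA7 in lapatinib is the only gene of the 50 with fewer than 10 counts in any library. CLSPN was also low in lapatinib, at 17.3 to 53.3 normalized counts, and its SE for FOXA1 siRNA there was 0.35.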
